A study of Mus musculus with 7 samples.

Results

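Cytosolic ribosomal protein genes are the genes whose products form the protein part of the large (Rpl) and small (Rps) subunits of the ribosome in the cytosol. Members were the rows of the RNA count table whose symbol is Rpl or Rps followed by a digit, or is Rplp0, Rplp1, Rplp2 or Rpsa, with at least 30 unique molecular identifiers (UMIs, which count captured RNA molecules) over all cells. Rps6k kinase genes and names that contain -ps were left out. The rule found 84 of 25127 genes, 50 named for the large subunit and 34 named for the small subunit, and these 84 genes held 7760908 of the 47477939 UMIs. Just inside the minimum lay Rpl30 with 52 UMIs, and just outside it lay Rpl39l with 29 UMIs. Rpl26, Rpl10l and Rps27rt matched by name and were listed with 0 UMIs.

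The cells came from C57/Bl6 mice, and CD11b+ cells were enriched by magnetic separation before droplet 3' RNA sequencing. 4 libraries came from mice with an LLC tumor (Lewis lung carcinoma, a mouse lung cancer line) at day 14: tumor tissue with 1917 cells, tumor-bearing blood with 354, tumor-bearing bone marrow with 57 and tumor-bearing spleen with 579. The other 3 libraries came from naive mice without a tumor: naive blood with 814 cells, naive bone marrow with 153 and naive spleen with 416. Each group is 1 library, the labels do not give the number of animals behind it, and a difference between tumor-bearing and naive mice cannot be told apart from a difference between 2 libraries.

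Each mature ribosome carries 1 copy of almost every ribosomal protein, so cells keep the supply of these proteins in balance. In mammals many of the mRNAs begin with a C and a run of pyrimidines, the 5' terminal oligopyrimidine tract, through which their translation responds to the kinase complex mTORC1. The proteins Rpl5 and Rpl11 bind 5S rRNA and, when free, inhibit the p53 regulator Mdm2, and Rplp0, Rplp1 and Rplp2 build the stalk that recruits translation factors.

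RefSeq promoters (GRCm38.p6) were matched by symbol for 63 of the 84 members, over 75 annotated starts. The tract was searched for on the transcribed strand as a C within 3 bases of the start followed by 5 or more pyrimidines, and 24 members (38.1%) held it at one or more of their starts, against 8.46% of 26962 other genes. The windows below run from 10 bases before to 20 bases after the annotated start, with the tract in capitals. They show members on which the results turn, first with and then without a tract found by this search. A member without one can still carry a tract, because the search depends on the annotated start.
Rps6: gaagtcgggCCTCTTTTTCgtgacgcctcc
Rps18: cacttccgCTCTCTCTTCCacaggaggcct
Rpl28: tctcgtgtCTCTCTTTCCgtctccggccgc
Rpl12: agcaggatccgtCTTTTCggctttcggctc
Rplp2: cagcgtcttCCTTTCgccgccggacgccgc
Rps15a: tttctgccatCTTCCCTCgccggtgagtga
Rpl38: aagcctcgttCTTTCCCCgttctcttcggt
Rpl37: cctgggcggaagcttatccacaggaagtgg
Rps28: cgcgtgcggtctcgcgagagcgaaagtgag
Rpl5: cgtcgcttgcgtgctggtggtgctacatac

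On the plus strand these windows lie at chr7:4792955-4792984 (Rpl28), chr2:32961702-32961731 (Rpl12), chr7:141447641-141447670 (Rplp2), chr11:114668570-114668599 (Rpl38), chr15:5116603-5116632 (Rpl37) and chr5:107900518-107900547 (Rpl5). On the minus strand they lie at chr4:86857348-86857377 (Rps6), chr17:33955646-33955675 (Rps18), chr7:118116128-118116157 (Rps15a) and chr17:33824543-33824572 (Rps28). The motif CCGGAAG, searched on both strands over 250 bases before to 50 bases after the start, was present in 24 members (38.1%) and in 9.86% of other genes. TATAAA within the 40 bases before the start was present in 1 member, against 2.80% of other genes. Read on the other strand, CCGGAAG begins with a run of pyrimidines that can lie within a tract, so the counts of these 2 motifs are not independent.

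Library totals ran from 617821 UMIs in tumor-bearing bone marrow to 20844058 UMIs in tumor tissue, with library medians of 8841 to 12445 UMIs per cell. Itgam, the gene for CD11b, had a UMI in 87.6% to 92.7% of the cells of each library. 2 cell barcodes occurred in 2 libraries. The neutrophil marker list (10 genes) summed to 367 CPM (counts per 1000000) in tumor tissue, where Ngp and Camp were at 0, to between 3966 and 8148 CPM in the tumor-bearing libraries and to between 1472 and 8967 CPM in the naive libraries. The macrophage list (8 genes) summed to 6024 CPM in tumor tissue, to between 1107 and 1759 CPM in the tumor-bearing libraries and to between 2449 and 3174 CPM in the naive libraries. B cell genes summed to 44.0 CPM in tumor tissue and dendritic cell genes to 769 CPM, against 202 to 350 CPM and 117 to 447 CPM in the tumor-bearing libraries. Of the lists for other cells, platelet genes summed to 286 CPM in tumor tissue, with Gp9 at 0, and to at most 8.69 CPM elsewhere. In cluster 11, where the macrophage list summed to 14323 CPM, the platelet list reached 859 CPM. In cluster 13 it was at 420 CPM from Pf4 alone, with Ppbp, Itga2b and Gp9 at 0, so this sum does not show platelets. Carcinoma and stromal genes summed to 19.3 CPM in tumor tissue and to at most 5.39 CPM elsewhere, red cell genes to at most 142 CPM and T and NK cell genes to at most 5.39 CPM in any library. For tumor-bearing against naive mice, the part of the mix of cells in the differences below was not tested beyond values within clusters and the processing settings given at the end. Tumor tissue shared too few cells of any cluster with the tumor-bearing libraries for values within clusters. A difference between tumor tissue and these libraries therefore cannot be told apart from a difference in the mix of cells.

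Of the 84 members, 83 had UMIs in every library; Rpl30 was at 0 in tumor-bearing bone marrow. 74 members had 10000 UMIs or more, and the 10 below that were Rpl30, Rpl3l, Rpl34, Rps27, Rps4l, Rps19bp1, Rpl7l1, Rpl22l1, Rpl37rt and Rpl31. Ribosomal protein genes have many near-identical processed copies in the mouse genome, among which reads can be split or dropped, so the levels of Rpl30, Rpl34, Rps27, Rpl31 and Rpl37rt in particular are uncertain. Rps19bp1 encodes a protein that binds Rps19 and Rpl7l1 a protein related to Rpl7; they enter the set by name, with 1405 and 3431 UMIs. CPM here are UMIs of a gene per 1000000 UMIs of the library, and intervals are exact 95% intervals that cover counting error only.

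Ribosomal protein mRNA took a smaller share of the RNA in tumor tissue than in any other library. The 84 genes held 13.7% of the UMIs of tumor tissue, 18.1% of tumor-bearing blood, 16.9% of tumor-bearing bone marrow and 18.6% of tumor-bearing spleen. In naive mice they held 18.5% in blood, 18.9% in bone marrow and 18.3% in spleen. The ratio of tumor tissue to its tumor-bearing counterpart was 0.755 for blood (interval 0.753 to 0.757), 0.810 for bone marrow (0.805 to 0.815) and 0.735 for spleen (0.734 to 0.737). The median cell of tumor tissue held 1222 ribosomal protein UMIs and 7626 other UMIs, against 1789 to 2158 ribosomal protein UMIs and 8007 to 10129.5 other UMIs in the tumor-bearing libraries. Of the tumor tissue cells, 55.5% fell under 14.0%, the 5th percentile of all blood, bone marrow and spleen cells.

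**Figure D1:**
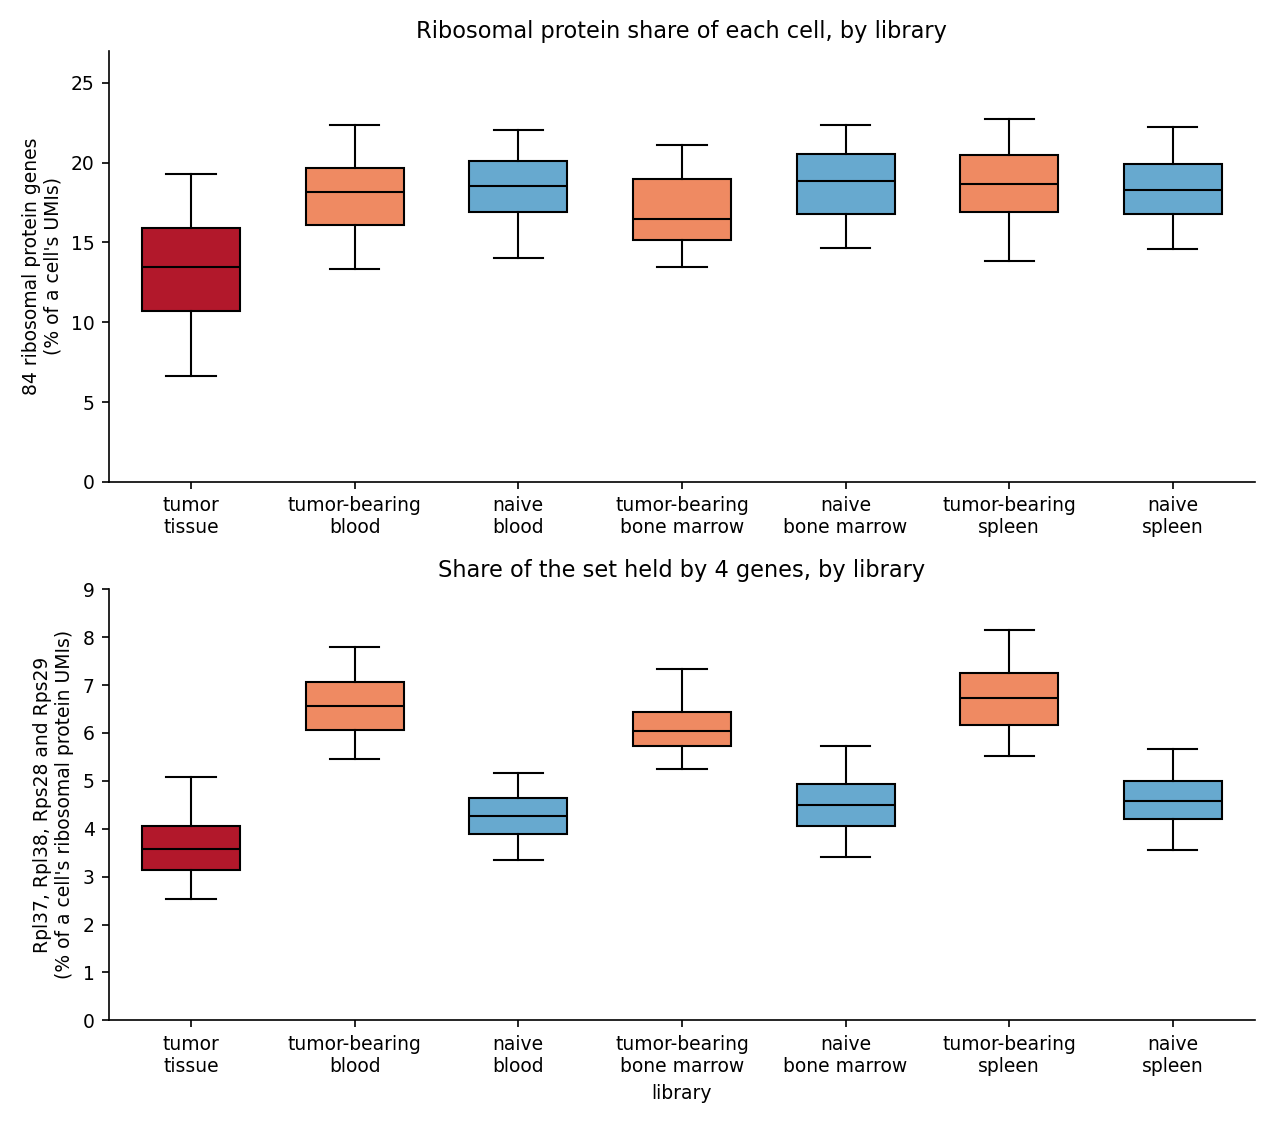
Boxes show the quartiles and the median over the cells of each library, and whiskers the 5th and 95th percentiles. The upper panel gives the share of a cell's UMIs (%) in the 84 genes, with a median of 13.5% in tumor tissue and of 16.4% to 18.9% elsewhere. The lower panel gives the share of the ribosomal protein UMIs (%) in Rpl37, Rpl38, Rps28 and Rps29, with medians of 6.05% to 6.72% in tumor-bearing libraries, 4.26% to 4.57% in naive libraries and 3.57% in tumor tissue.

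Both subunits were lower together in tumor tissue. Small-subunit genes held 44.2% of the set's UMIs in tumor tissue, 45.0% to 45.1% in the tumor-bearing libraries and 44.8% to 44.9% in the naive libraries. Depth moved with the share within tumor tissue: of 3 equal groups of cells ordered by UMIs, the shallowest (median 6246) had a median share of 11.9%, the middle one 14.1% and the deepest (median 13058) 14.2%. In the other libraries the same 3 groups gave medians of 15.9% or more, at median depths of 7898 UMIs and above, so the groups are not matched in depth between libraries. With every cell thinned to 3000 UMIs, the log2 ratios of the summed level in tumor tissue were -0.42, -0.33 and -0.47 over tumor-bearing blood, bone marrow and spleen, against -0.41, -0.30 and -0.44 unthinned. Thinning leaves the expected share of each cell unchanged and gives the cells equal weight. These values therefore cannot show the part of depth, which was not tested.

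Among single members, the lower level of tumor tissue was broad, and it was steepest for a few of the shortest genes. A gene was called measured with at least 30 UMIs in both libraries together and 20 CPM in one of them, and was counted as higher at 25% or more above, or as lower at 20% or more below, the other library (the same fold in both directions). Against tumor-bearing blood, 41 of 79 measured members were lower and 0 were higher, where 36.4% of all measured genes were lower and 25.2% higher, and 31.9% and 36.9% of other genes at 200 CPM or more. Against tumor-bearing bone marrow, 29 of 80 were lower and 0 higher, where 41.4% of all measured genes were lower and 25.9% higher, and 34.8% and 35.2% of other genes at 200 CPM or more. Against tumor-bearing spleen, 47 of 81 were lower and 0 higher, where 39.8% of all measured genes were lower and 24.5% higher, and 31.2% and 39% of other genes at 200 CPM or more. The share of lower members was above both backgrounds for blood and spleen and between them for bone marrow, and no member was counted as higher in any of the 3. The members' median log2 ratios were -0.34, -0.27 and -0.38 for blood, bone marrow and spleen, against -0.13, -0.18 and -0.15 over all measured genes. Under a scaling by trimmed means of M-values (TMM), all log2 ratios of these 3 comparisons shift up by 0.19, 0.26 and 0.23, and the lower members number 18, 13 and 20. The shares of all measured genes were not counted under TMM, so these numbers cannot be read against them.

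Rpl37, a zinc-binding protein of the large subunit, had 275 CPM in tumor tissue, against 882 CPM in tumor-bearing blood, 660 CPM in tumor-bearing bone marrow and 958 CPM in tumor-bearing spleen. Its ratios of 0.311 (interval 0.299 to 0.324), 0.416 (0.376 to 0.461) and 0.287 (0.276 to 0.298) were the next to lowest of the set in each comparison. Its retrotransposed copy Rpl37rt, which shares sequence with it, gave 0.298, 0.343 and 0.299. Rps29, a zinc-binding protein of the small-subunit head that is mutated in some humans with Diamond-Blackfan anemia, had 1900 CPM in tumor tissue, against 4769, 4114 and 4855 CPM in tumor-bearing blood, bone marrow and spleen. Rps28, at the mRNA exit side, had 1443 CPM in tumor tissue, against 3451, 3132 and 3687 CPM in the same order. The ratios of Rps28 and Rps29 lay between 0.391 and 0.462 in the 3 comparisons. Rpl38, which in mouse embryos is needed for the translation of a subset of Hox mRNAs, had 1300 CPM in tumor tissue, against 2702, 2331 and 3002 CPM, with ratios of 0.481, 0.558 and 0.433.

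Rpl31 had ratios of 0.475, 0.602 and 0.430, and Rps26, a small-subunit protein at the mRNA exit, with ratios of 0.551, 0.547 and 0.475, against blood, bone marrow and spleen. Rps27 was lowest against spleen, at 0.282, from 6.33 CPM in tumor tissue and 22.4 CPM in tumor-bearing spleen, and its level is among the uncertain ones. It passed the minimum for a measured gene only through its level in tumor-bearing spleen, so no weight is put on its rank. At the other end stood Rpl12, a large-subunit protein at the base of the stalk, with 965 CPM in tumor tissue, against 908 CPM in tumor-bearing blood, 910 CPM in tumor-bearing bone marrow and 895 CPM in tumor-bearing spleen. Its ratios of 1.06, 1.06 and 1.08 place it level with the tumor-bearing libraries while most of the set was lower. Rpl8 (0.939, 1.05 and 0.978) and Rps20 (0.961, 0.953 and 0.911) were also near 1. Rpl12, Rpl7l1, Rps19bp1, Rps20 and Rpl8 were the 5 highest against blood, Rpl12, Rpl8, Rps19bp1, Rpl23 (1.003) and Rpl13a (1.001) against bone marrow, and Rpl7l1 (1.24), Rpl12, Rpl8, Rps27l (0.948) and Rps19bp1 (0.944) against spleen.

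The stalk genes did not move as a unit. Rplp2 had 985 CPM in tumor tissue, against 1633, 1557 and 1936 CPM in tumor-bearing blood, bone marrow and spleen, with ratios of 0.603, 0.632 and 0.509. Rplp1, its partner in the stalk dimers, had 2474 CPM in tumor tissue, against 2637, 2680 and 2933 CPM, with ratios of 0.938, 0.923 and 0.844. Rplp0, the base of the stalk, lay between them for blood and bone marrow with 0.776 and 0.783, and above both for spleen with 0.925. Of the genes that carry 5S rRNA, Rpl5 had 808 CPM in tumor tissue, against 1020, 950 and 1182 CPM (ratios 0.793, 0.851 and 0.684), and Rpl11 had 1922 CPM in tumor tissue, against 2347, 2211 and 2371 CPM (0.819, 0.869 and 0.811). Rpsa, the small-subunit protein also known as the laminin receptor precursor, gave 0.724, 0.721 and 0.770. Rps19, the gene most often mutated in Diamond-Blackfan anemia, gave 0.868, 0.895 and 0.866, and Rps3, a small-subunit protein at the mRNA entry channel, 0.850, 0.905 and 0.910. Rps27a, which is made as a fusion with ubiquitin, gave 0.709, 0.823 and 0.707, and Rps6, the substrate of the Rps6k kinases, 0.910, 0.914 and 0.853.

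**Figure D2:**
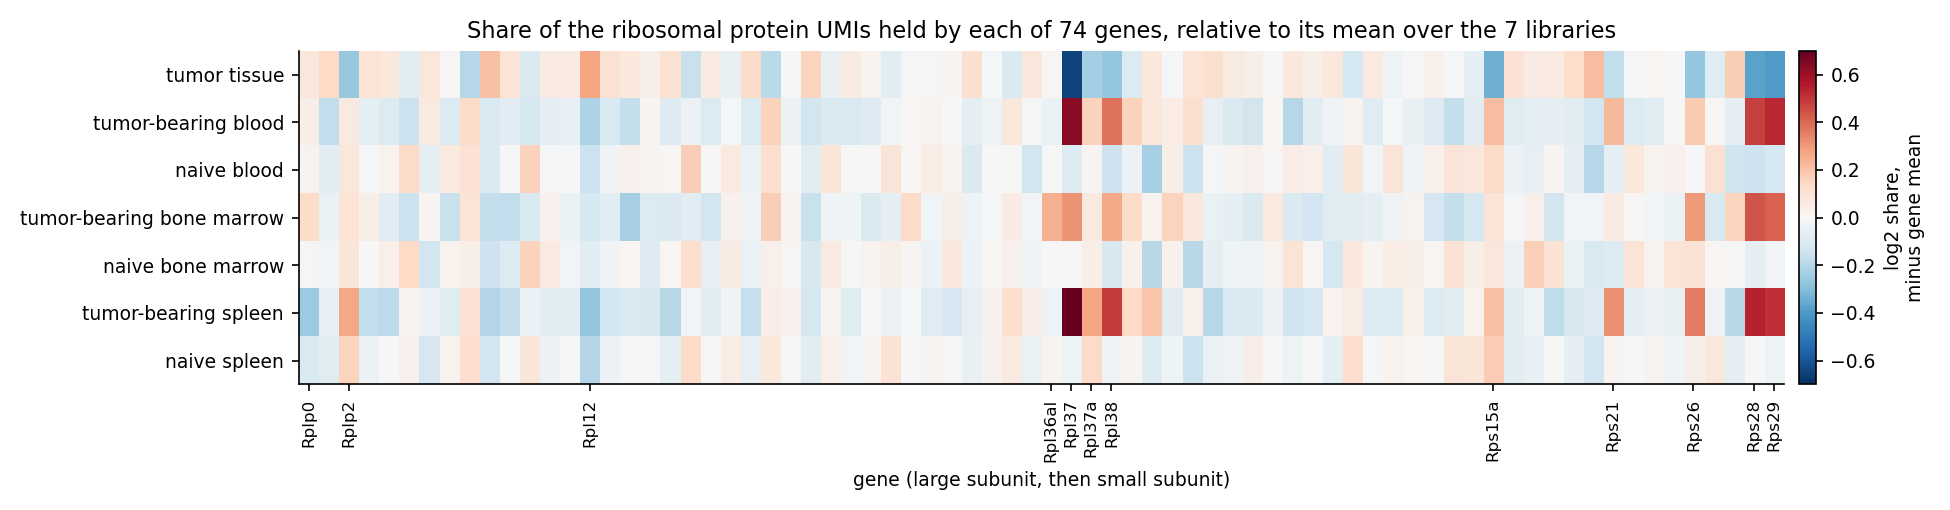
Each column is 1 of the 74 genes with 10000 UMIs or more and each row 1 library. Color gives the log2 of the gene's share of the ribosomal protein UMIs in a library over its share in all cells pooled. The title and color label call this pooled share the mean, and tumor tissue weighs most in it. The genes farthest from it in any library are named. Rpl37, Rpl38, Rps28 and Rps29 stand out as high in the 3 tumor-bearing rows and low in tumor tissue, where Rpl37 is at -0.65, while Rpl12 is highest in tumor tissue at 0.28.

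The share varied more between the clusters of tumor tissue than between circulating clusters. The authors' clusters were used; since they were made from the same cells' expression, differences among them are descriptions. Cluster 8 had the lowest median share, 10.4% over 258 cells, followed by clusters 13 with 11.6% and 10 with 11.8%. Clusters 3 and 5 both stood at 13.1%, cluster 11 at 13.4% and cluster 7 at 14.7%. Clusters 9 and 17, with 95.2% and 100% of their cells from tumor tissue, reached 17.4% and 16.8%, level with the range of 16.8% to 19.3% of the 7 clusters with cells mostly from blood, bone marrow and spleen. Median UMIs per cell were 1477.5 in cluster 13 and 29673 in cluster 11, so cluster 13 held the shallowest cells and cluster 11 the deepest.

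**Figure D3:**
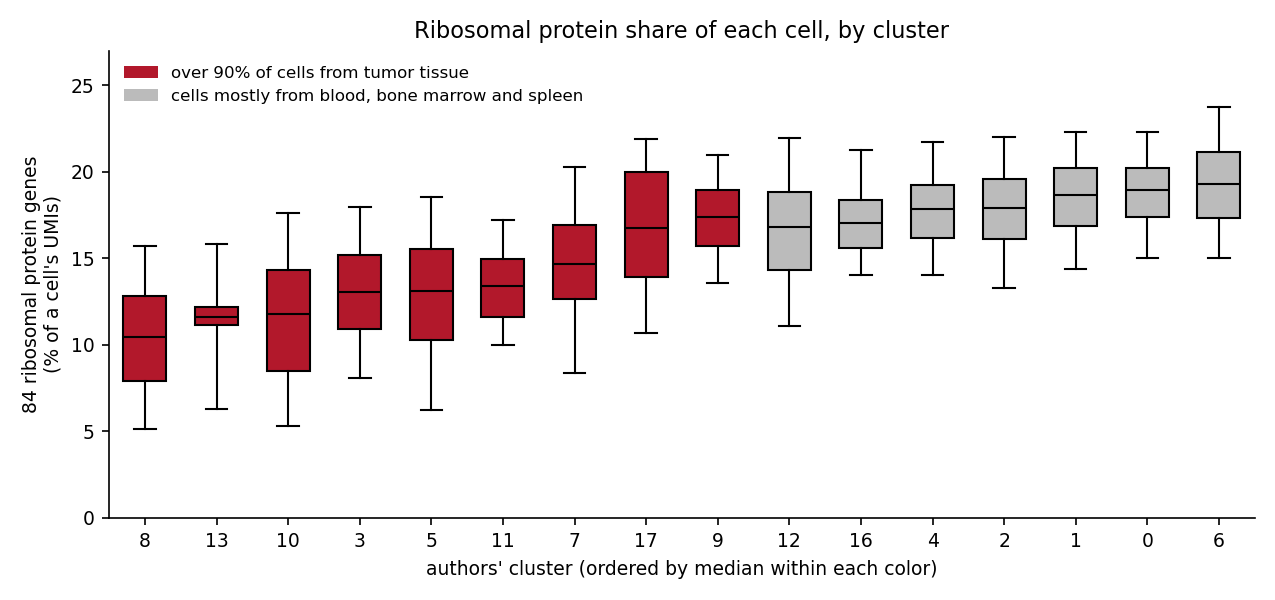
Boxes show quartiles and the median, and whiskers the 5th and 95th percentiles, of the share of a cell's UMIs (%) in the 84 genes for each of the 16 clusters with counts. Clusters from tumor tissue spread from a median of 10.4% (cluster 8) to 17.4% (cluster 9), and the others from 16.8% (cluster 12) to 19.3% (cluster 6).

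Against the other tumor tissue cells, cluster 9 had 49 of 79 measured members higher and 2 lower by the same rule, where 21.6% of all measured genes were higher and 29% lower. Rpsa and Rpl28 were among its highest members, and its lowest were Rps19bp1, Rpl7l1, Rps27l and Rpl12. Cluster 17, in which the dendritic cell list summed to 6997 CPM against 769 CPM in all of tumor tissue, had 39 of 79 higher and 0 lower, where 24.2% of all measured genes were higher and 30.2% lower. In cluster 8, 33 of 80 were lower and 0 higher, where 10.4% of all measured genes were lower and 12.6% higher, with Rpsa, Rps27a and Rplp0 the 3 lowest. In cluster 10, 21 of 79 were lower and 0 higher, below the 48.5% of all measured genes that were lower there (17.5% were higher). In cluster 13, 28 of 80 were lower and 6 higher, where 28.5% of all measured genes were lower and 47.9% higher. The 4 other clusters moved fewer members: cluster 3 had 3 of 79 higher and 0 lower (17.1% and 12.3% of all measured genes), and cluster 5 had 0 higher and 10 lower (10.7% and 29.9%). Cluster 7 had 4 of 79 higher and 1 lower (12.5% and 29.5%), and cluster 11 had 9 of 80 higher and 1 lower (35.6% and 14.4%).

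The members with the widest range over clusters, among those with 10000 UMIs or more, were Rpl37, Rps15a, Rplp2, Rpl21 and Rps28. Rpl37 ran from 198 CPM in cluster 10 to 781 CPM in cluster 12, the cluster with the neutrophil markers (45823 CPM). Rps15a ran from 690 CPM in cluster 13 to 2451 CPM in cluster 6, and Rplp2 from 540 CPM in cluster 13 to 1807 CPM in cluster 0. Rpl21 ran from 810 to 2318 CPM and Rps28 from 1064 to 2957 CPM, in both cases from cluster 13 to cluster 6. Of these 5 genes, 4 were thus lowest in the shallow cluster 13. Rpl12 did not follow the set: it was highest in clusters 17 and 13, with 1541 and 1454 CPM, and lowest in clusters 12 and 10, with 674 and 698 CPM.

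Between tumor-bearing and naive mice the summed level hardly differed in blood and spleen. The ratio of tumor-bearing to naive was 0.980 in blood (interval 0.978 to 0.983), 0.896 in bone marrow (0.890 to 0.903) and 1.02 in spleen (1.01 to 1.02), and the spleen ratio turned to the other side of 1 under DESeq2 size factors. Bone marrow rested on 57 tumor-bearing and 153 naive cells. Within single clusters with at least 20 cells in both libraries, the ratio lay between 0.966 and 1.02 in 5 clusters of blood and between 0.978 and 1.05 in 5 clusters of spleen, and it was 0.932 in cluster 0 of bone marrow.

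While the sum was nearly level in blood and spleen and lower in bone marrow, a small group of genes was higher in tumor-bearing blood and spleen. In blood, 5 of 80 measured members were higher, where 6.57% of all measured genes and 5.7% of other genes at 200 CPM or more were higher. In the same tissue 1 member (Rps4l, a low-level relative of Rps4x annotated as a transcribed processed pseudogene, at 17.5 CPM in tumor-bearing and 22.8 CPM in naive blood) was lower, where 5.26% and 2.85% were lower. Its log2 ratio of -0.39 turned to 0.0082 with cells thinned to 3000 UMIs, and it missed the threshold with equal mixes of clusters and without the deepest 2% of cells. In bone marrow, 3 of 80 were higher and 8 lower, where 22.1% of all measured genes were higher and 17.1% lower, and 17.9% and 6.73% of other genes at 200 CPM or more. In spleen, 7 of 81 were higher and 0 lower, where 7.11% of all measured genes were higher and 4.92% lower, and 3.94% and 3.03% of other genes at 200 CPM or more. These shares were close to or under those of all measured genes, so the group is described by which genes it held. All 5 of the blood genes, Rpl37rt, Rpl37, Rps29, Rps28 and Rpl38, were among the 7 of spleen, which added Rps26 and Rps21. Rpl37rt and Rps28 were past the threshold in all 3 tissues, while Rpl37, Rps29 and Rpl38 lay above 1 but within the threshold in bone marrow.

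Rps29 had 4769 CPM in tumor-bearing blood, against 3112 CPM in naive blood, 4114 CPM in tumor-bearing bone marrow, against 3397 CPM in naive bone marrow, and 4855 CPM in tumor-bearing spleen, against 3261 CPM in naive spleen. The ratios were 1.53 (interval 1.51 to 1.56), 1.21 (1.15 to 1.27) and 1.49 (1.46 to 1.52). Rps28 had 3451 against 2281 CPM, 3132 against 2462 CPM and 3687 against 2490 CPM in tumor-bearing against naive blood, bone marrow and spleen. Its ratios were 1.51 (1.48 to 1.54), 1.27 (1.20 to 1.34) and 1.48 (1.45 to 1.52). Every tumor-bearing value of both genes was above every naive value. Rpl37 had 882 CPM in tumor-bearing and 545 CPM in naive blood, 660 and 591 CPM in tumor-bearing and naive bone marrow, and 958 and 559.9 CPM in tumor-bearing and naive spleen, with ratios of 1.62 (1.55 to 1.69), 1.12 and 1.71 (1.63 to 1.79), and Rpl37rt had ratios of 1.74, 1.505 and 1.65. Rpl38 had 2702 CPM in tumor-bearing and 1916 CPM in naive blood, 2331 and 1999.7 CPM in tumor-bearing and naive bone marrow, and 3002 and 2065 CPM in tumor-bearing and naive spleen, with ratios of 1.41, 1.17 and 1.45. Tumor tissue was below every other library for each of these genes.

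Taking blood, bone marrow and spleen as 3 pairs of a tumor-bearing and a naive library allowed a test over the 6 libraries. In an edgeR quasi-likelihood fit across 5863 genes with tissue as a block, 5 of 81 members tested were higher in tumor-bearing mice and 4 were lower at an adjusted p (Benjamini-Hochberg over all genes) under 0.05, where 2.29% of all genes tested were higher and 1.59% lower. The 5 higher members were those called in blood. The log2 ratio in the edgeR fit was 0.71 ± 0.08 (SE) for Rpl37rt, with an adjusted p of 3.35e-05, and 0.48 ± 0.07 for Rps28, with an adjusted p of 0.000416. For Rps29 it was 0.47 ± 0.07 (edgeR adjusted p = 0.000764), for Rpl37 0.55 ± 0.09 (0.00162) and for Rpl38 0.40 ± 0.07 (0.00251). The 4 lower members were Rps14, of the small-subunit platform, at -0.31 ± 0.07 (edgeR adjusted p = 0.0116), Rpl10, a late-joining protein of the large subunit, at -0.30 ± 0.07 (0.0172), Rpl17 at -0.26 ± 0.07 (0.0291) and Rps6 at -0.26 ± 0.07 (0.0445). Each of the 9 had the same sign in all 3 tissues. Rps26 and Rps21, past the fold in spleen, had edgeR adjusted p-values of 0.27 and 0.231. The test takes the tissues as replicates, the labels do not tie libraries to animals, and a difference in preparation shared by the tumor-bearing libraries cannot be told apart. With 2 residual degrees of freedom, its p-values rest largely on variance shared across the genes tested. The SE is the log2 ratio over the square root of the test's F statistic, and not a spread over the 3 pairs. Without the block no member and no other gene was called. At an unadjusted edgeR p under 0.05, 6 members were higher and 24 lower without it, where 179 and 176 of all 5863 genes were. With the block, 9 and 31 of 81 members passed that unadjusted p, where 458 and 476 of all genes did. Without the blood pair Rpl38 (edgeR adjusted p = 0.0810) and all 4 lower members lost the call. Without the bone marrow pair 8 members were higher and 2 lower, where 2.39% and 1.73% of all genes tested were. Rps6 lost the call under DESeq2.

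The shift was visible in single cells. Rpl37, Rpl38, Rps28 and Rps29, the 4 genes with the widest range over libraries among members of 10000 UMIs or more, together held a median of 6.55% of a cell's ribosomal protein UMIs in tumor-bearing blood, against 4.26% in naive blood. In bone marrow the medians were 6.05% in tumor-bearing and 4.50% in naive cells, and in spleen 6.72% and 4.57%. The interquartile ranges of tumor-bearing and naive cells did not overlap in any tissue. Because the genes were chosen from these libraries, the values are a description and not a test.

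It was also present within clusters. Over the 11 comparisons of tumor-bearing with naive cells inside 1 cluster, Rpl37rt and Rps28 were higher in all 11, and Rpl37, Rps29 and Rpl38 in 10 of 11 each. These genes were chosen from the same libraries, and the 11 comparisons split the cells of 3 library pairs. The counts are therefore a description and not independent repeats. Of all measured genes, 15.1%, 16.5%, 19.6%, 16.1% and 19.8% were higher in clusters 0, 1, 2, 4 and 6 of blood, 20.9%, 17.4%, 19.2%, 18% and 20.7% in the same clusters of spleen, and 21.7% in cluster 0 of bone marrow. The 1 comparison in which the last 3 genes missed the threshold was cluster 0 of bone marrow. Rps28 ran from 1.39-fold to 1.56-fold, Rps29 from 1.23-fold to 1.57-fold, Rpl38 from 1.18-fold to 1.55-fold and Rpl37 from 1.15-fold to 1.86-fold. Marker lists of other cells moved as well. Of the measured neutrophil markers, 7 of 7 in blood, 4 of 8 in bone marrow and 7 of 8 in spleen were higher in tumor-bearing mice and 0, 1 and 0 lower, while the summed level in bone marrow was 8148 CPM in tumor-bearing against 8967 CPM in naive cells. Of the non-classical monocyte genes, 4 of 6, 5 of 5 and 3 of 6 were higher in blood, bone marrow and spleen and none lower, with median log2 ratios of 0.34, 0.75 and 0.24, and 5 of 6 were lower and 1 higher in tumor tissue than in each tumor-bearing library. The mitochondrially encoded genes had median log2 ratios of 0.13, 0.21 and 0.15. The part of these cells and genes was not tested beyond these within-cluster values and the values without cluster 12, which left the 5 genes of blood and the 7 of spleen the same in number.

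**Figure D4:**
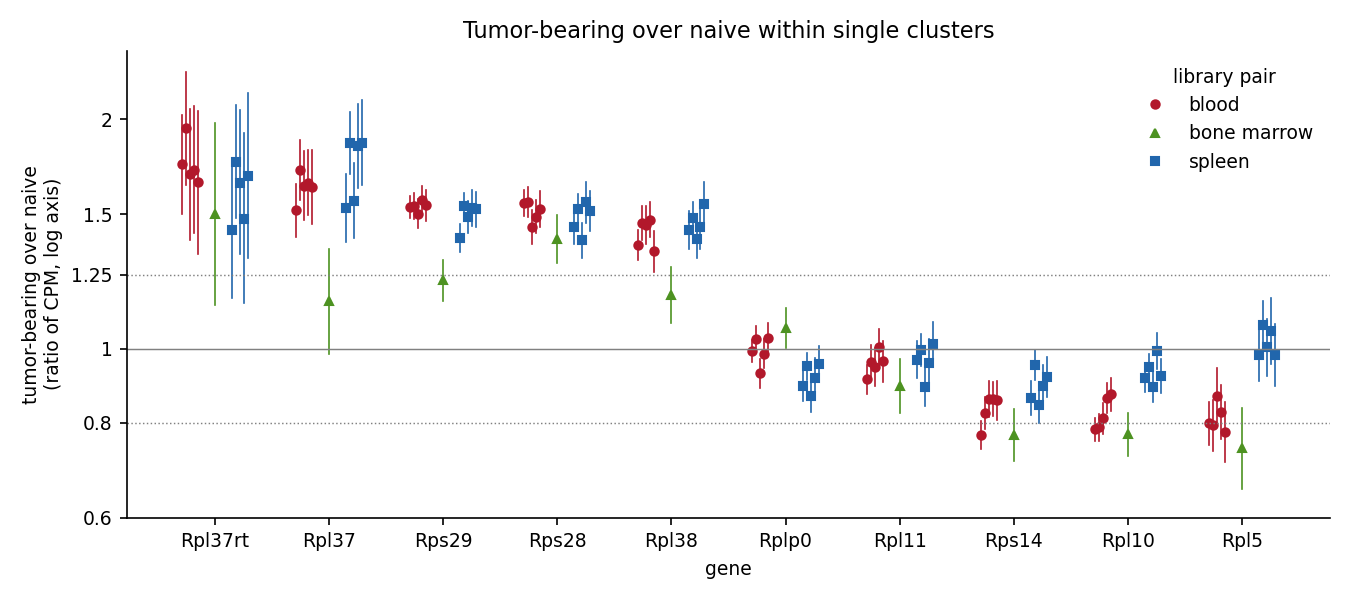
Each point is the ratio of CPM in tumor-bearing over naive cells (log axis) inside 1 cluster of blood (5 clusters), bone marrow (1) or spleen (5), with its 95% counting interval; dotted lines mark the threshold in both directions. Rpl37rt, Rpl37, Rps29, Rps28 and Rpl38 lie above 1 in all 11 comparisons, and Rplp0 and Rpl11 lie around 1. Rpl10 and Rps14 lie below 1 in all 11, and Rpl5 lies below 1 in blood and bone marrow.

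At the low end in blood and bone marrow stood Rpl5, Rpl10 and Rps14. Rpl5 had 1020 CPM in tumor-bearing blood, against 1265 CPM in naive blood, and 950 CPM in tumor-bearing bone marrow, against 1296 CPM in naive bone marrow, with ratios of 0.806 (interval 0.779 to 0.834) and 0.733 (0.667 to 0.804). It had 1182 CPM in tumor-bearing and 1166 CPM in naive spleen, a ratio of 1.01. Rpl10 gave 0.814, 0.746 and 0.931 in blood, bone marrow and spleen, and Rps14 gave 0.820, 0.745 and 0.901. Rps6 gave 0.825, 0.781 and 0.944. Inside single clusters, Rpl5, Rpl10, Rps14, Rpl17 and Rps6 were past the threshold as lower in 4, 3, 2, 1 and 1 of 11 comparisons. Of all measured genes, 13.1% (cluster 1 of spleen) to 21.2% (cluster 0 of bone marrow) were lower in a comparison. The 5 genes were chosen from the same libraries, so their counts are a description. The 8 members past the threshold in bone marrow were Rpl5, Rps14, Rpl10, Rpl13a (0.755), Rps18 (0.764), Rps6, Rpl17 and Rpl7 (0.790). In spleen the 5 lowest, Rpl4 (0.896), Rps18 (0.897), Rps14, Rpl9 (0.913) and Rpl17 (0.915), all stayed within the threshold. The 5 highest in bone marrow included Rpl7l1, with 92.3 CPM in tumor-bearing and 62.3 CPM in naive cells (1.48-fold, interval 1.05 to 2.08), and Rps4l, with 30.8 CPM in tumor-bearing and 25.3 CPM in naive cells (ratio 1.21, interval 0.663 to 2.15).

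The paralogue pairs differed in level and in pattern. Rpl22l1, the paralogue of Rpl22, had 109 CPM in tumor tissue, against 183, 144 and 197 CPM in tumor-bearing blood, bone marrow and spleen, which in turn stood against 151, 170.0 and 161 CPM in naive mice. Its tumor-bearing to naive ratios were 1.21, 0.847 and 1.22, while those of Rpl22 were 0.952, 0.903 and 1.03. Rps27l, a target of p53 related to Rps27, had 303 CPM in tumor tissue, 319.9 to 369 CPM in the tumor-bearing libraries and 329 to 366 CPM in the naive libraries. Rpl3l, the striated-muscle relative of Rpl3, was under 20 CPM in every library and so under the minimum for a measured gene, with 17.0 CPM in tumor-bearing and 8.08 CPM in naive blood, 8.09 and 4.54 CPM in tumor-bearing and naive bone marrow, and 12.2 and 5.20 CPM in tumor-bearing and naive spleen, and it had 4.70 CPM in tumor tissue. The bone marrow values rest on 5 and 7 UMIs. The tumor-bearing to naive ratios of Rpl3 itself ran from 0.926 to 0.942. Rpl36a and Rpl36al gave 1.07 and 0.947 in blood, 0.901 and 1.06 in bone marrow and 1.09 and 0.976 in spleen. Rps4x, the X-linked partner of Rps4l, gave 0.878, 0.851 and 0.918. Rpl39, the partner of the testis-enriched Rpl39l, gave 1.13, 0.960 and 1.10.

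The ratios of the members went with coding length in all 6 comparisons. Over the 74 members with 10000 UMIs or more, the correlation (Pearson's r) of the log2 ratio with log2 coding length was 0.44 for tumor tissue over tumor-bearing blood, 0.45 over bone marrow and 0.51 over spleen, and it was -0.57 for tumor-bearing over naive blood, -0.46 for bone marrow and -0.60 for spleen. These points are genes of the same libraries, and the comparisons share libraries. The 9 members under 300 coding bases had median log2 ratios of -0.80, -0.60 and -0.96 in the tumor tissue comparisons, and of 0.28, 0.06 and 0.32 in the tumor-bearing over naive ones. The 14 members of 700 coding bases or more had medians of -0.27, -0.20 and -0.29, and of -0.08, -0.16 and -0.07. Between tumor-bearing and naive mice the medians were not ordered throughout: those of the 21 members in the middle length class, -0.11, -0.24 and -0.04, and of the 16 members in the class just under 700 bases, -0.11, -0.22 and -0.07, were below those of the longest members in blood and bone marrow. Length did not order them fully: Rpl41, the shortest with 75 coding bases, was at 1.21 in blood and 1.24 in spleen, below Rpl37 with 291. Other genes at 200 CPM or more and under 300 coding bases (67 to 76 genes a comparison) had medians of the same sign, -0.24, -0.38 and -0.27, and 0.09, 0.08 and 0.10, which were closer to 0 than those of the short members except in tumor-bearing over naive bone marrow. Other genes of 700 coding bases or more had medians of 0.18, 0.09 and 0.25, and of -0.003, 0.09 and -0.03. In tumor-bearing over naive bone marrow the short other genes were thus not above the long ones.

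**Figure D5:**
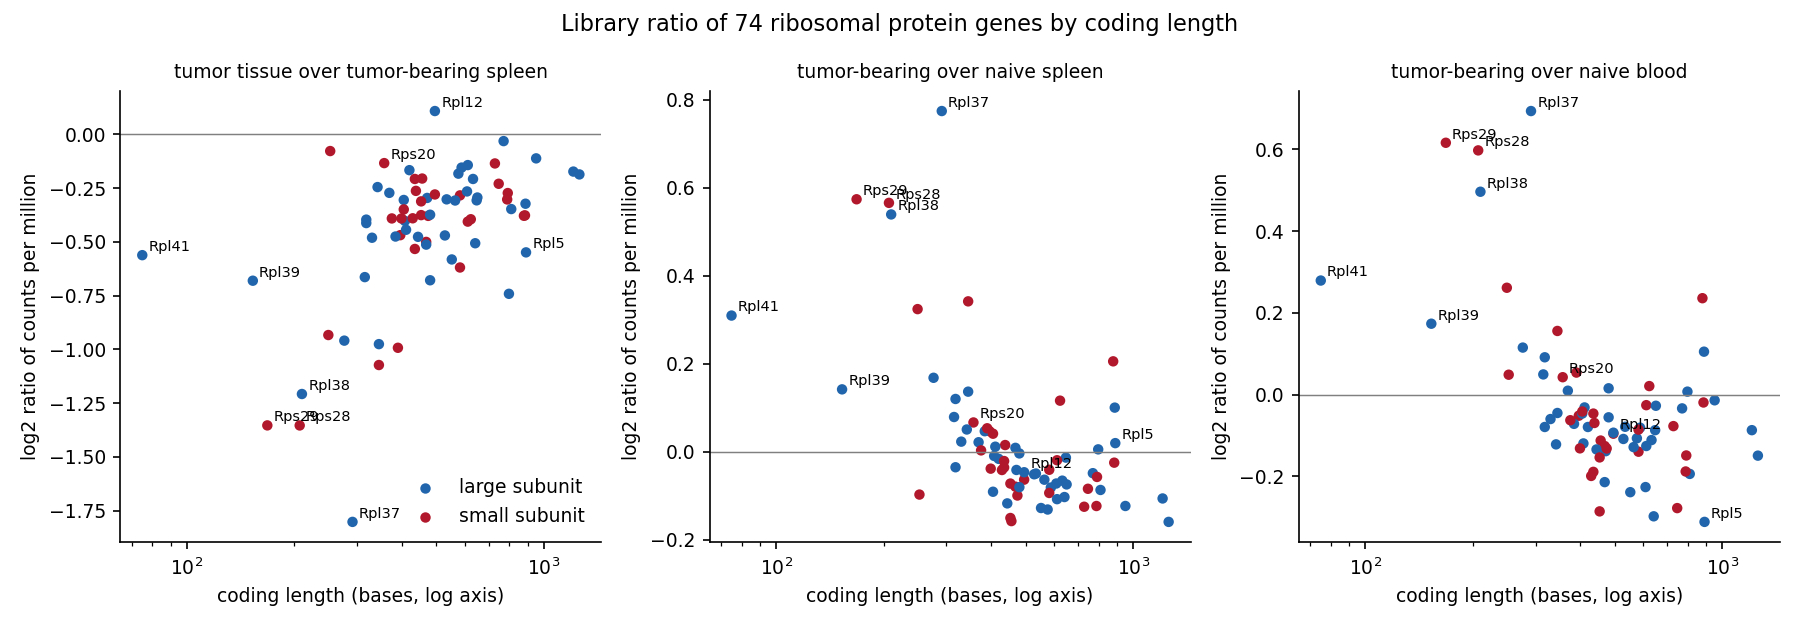
Each point is 1 of 74 genes, by coding length (bases, log axis) and log2 ratio of CPM, for tumor tissue over tumor-bearing spleen and for tumor-bearing over naive spleen and blood; blue marks the large and red the small subunit. The short genes Rpl37, Rpl38, Rps28 and Rps29 lie lowest in the first panel and highest in the other two.

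The ratios of members with and without a tract found by the search overlapped. The search rests on annotated starts. Some members counted as without, such as Rps26 and Rpl39, hold such a run farther into the window. This split therefore does not sort the mRNAs by whether they carry the tract, and the part of the tract was not tested. In blood, the 22 measured members with a tract had a median log2 ratio of tumor-bearing over naive of -0.07, as did the 38 without. In bone marrow the medians were -0.20 with and -0.15 without, and in spleen -0.04 for 23 members with and -0.02 for 38 without. In tumor tissue they were -0.38, -0.31 and -0.44 with a tract, against -0.30, -0.25 and -0.32 without. Among the genes shown, Rps6 and Rpl38 both carry a tract, and Rps6 was at 0.825 and Rpl38 at 1.41 in tumor-bearing over naive blood.

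Genes that work with the ribosome were compared as lists, and their counts are read against the shares of all measured genes given above (in tumor tissue 36.4%, 41.4% and 39.8% lower and 25.2%, 25.9% and 24.5% higher, over tumor-bearing blood, bone marrow and spleen). The 6 partner genes, among them Fau, which encodes a further ribosomal protein fused to a ubiquitin-like domain, summed to 11492 CPM in tumor tissue, against 14515, 13837 and 15152 CPM in tumor-bearing blood, bone marrow and spleen. Of these 6 genes, 2, 1 and 5 were lower and 0 higher, a share above that of all measured genes for spleen and under it for blood and bone marrow, with median log2 ratios of -0.29, -0.24 and -0.37, of which that against bone marrow lies above 0 after the TMM shift. Rack1, the scaffold on the small-subunit head, had 1414 CPM in tumor-bearing blood, against 1817 CPM in naive blood (listed as Gnb2l1), the 1 partner gene past the threshold there. A list of 13 genes whose mRNAs carry the tract in mammals held translation factors and also Tpt1, Npm1 and Hnrnpa1. Of these 13 genes, 7, 4 and 5 were lower and 2, 2 and 0 higher in tumor tissue. The lower share was above that of all measured genes for blood and under it for bone marrow and spleen. The medians were -0.38, -0.17 and -0.26, of which again that against bone marrow lies above 0 after the shift. The summed level of these 13 genes was 16247 CPM in tumor tissue, against 17419, 16343 and 16256 CPM in tumor-bearing blood, bone marrow and spleen. It was thus nearly level with bone marrow and spleen, while the medians were below 0. Tpt1, which weighs much in this sum, had 6789 CPM in tumor tissue, against 5988 CPM in tumor-bearing blood. Pabpc1, the poly(A)-binding protein, had 614 CPM in tumor tissue, against 864 CPM in tumor-bearing blood.

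Ribosome biogenesis genes were higher more often than lower in tumor tissue: of 17, 18 and 17 measured genes, 8, 8 and 9 were higher and 3, 5 and 3 lower, with medians of 0.28, 0.10 and 0.36 on the log2 scale. Ncl, which encodes nucleolin, had 256 CPM in tumor tissue, against 138 CPM in tumor-bearing spleen, and Nop58, a box C/D snoRNP core protein, 47.1 against 14.6 CPM. Integrated stress response genes were higher in tumor tissue, 5 of 6 measured against blood and bone marrow and 6 of 6 against spleen, and the list summed to 1537 CPM, against 401, 361 and 376 CPM in tumor-bearing blood, bone marrow and spleen. Atf4, the transcription factor at the center of that response, had 271 CPM in tumor tissue, against 82.2 CPM in tumor-bearing spleen, Ddit3 had 53.5 against 14.4 CPM, and Atf3 had 682 against 34.9 CPM. Mitochondrial ribosomal protein genes, the other ribosome of the cell, were lower in 25 of 69, 41 of 71 and 29 of 69 cases and higher in 3, 4 and 4. The share of lower genes was close to that of all measured genes against blood and spleen and above it against bone marrow, with medians of -0.20, -0.37 and -0.17, of which that against spleen lies above 0 after the TMM shift and that against blood after the DESeq2 one. Of 7 measured genes of the TOR pathway, 3, 4 and 5 were lower and 0, 0 and 1 higher. Of 12 proliferation genes only 4 were measured, with 3, 2 and 2 higher and 1 lower each time, and the list summed to 602 CPM in tumor tissue, against 647, 991 and 696 CPM in tumor-bearing blood, bone marrow and spleen.

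The same lists were compared between tumor-bearing and naive mice. Mitochondrial ribosomal proteins had medians of 0.08, 0.18 and 0.09 in blood, bone marrow and spleen, with 4 of 69, 18 of 70 and 2 of 68 higher and 0, 2 and 0 lower, where 6.57%, 22.1% and 7.11% of all measured genes were higher. The list of translation factors and Tpt1, Npm1 and Hnrnpa1 summed to 17419 against 19270.5 CPM in tumor-bearing against naive blood, 16343 against 18637 CPM in bone marrow and 16256 against 18060.2 CPM in spleen. The genes of this list had medians of -0.12, -0.25 and -0.15, with 0, 4 and 0 of 13 lower and 0 higher, where 5.26%, 17.1% and 4.92% of all measured genes were lower. The integrated stress response list summed to 401 against 389.8 CPM in tumor-bearing against naive blood, 361 against 293 CPM in bone marrow and 376 against 365 CPM in spleen.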

How the data were processed

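Per the labels' protocols, droplet 3' libraries with antibody tags were made from CD11b+ cells. The submitters' processing notes name Cell Ranger, without a version, and the build mm10. The deposited table holds raw UMI counts per gene and cell, and cluster and library come from the authors' deposited metadata (4290 cells with counts, 237 cells of the metadata without). The deposited fraction of mitochondrial UMIs per cell, given here as a percent, was at most 9.86%. No doublet caller was run, and whether the authors removed doublets is not given in the sources used here; leaving out the deepest cells was an alternative. Antibody counts and normalized values were not used. The mapping of reads that fit several copies is not given in the sources used here.

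Counts were summed per library and scaled to 1000000 per library (CPM). Each group is 1 library, so single comparisons carry no p-value. Tumor-bearing and naive libraries were also tested over the 3 tissues as pairs, with edgeR's quasi-likelihood test (TMM, tissue as a block, 2 residual degrees of freedom, Benjamini-Hochberg adjustment), chosen after seeing the data; tumor tissue, with no naive counterpart, was not tested. The minimum for a measured gene was 30 UMIs over both libraries and 20 CPM in one of them. Ratios carry exact conditional binomial intervals and shares Clopper-Pearson intervals (95%), which cover counting error only. Calls, intervals and this fit were tested on simulated data. Genes named are the 5 highest and 5 lowest members of each comparison, the 5 with the widest range over clusters, and the stalk, 5S and paralogue genes. The 4 genes followed in single cells, and lists and members, were chosen with earlier results of these data known. Coding lengths come from GENCODE (GRCm38) and starts from RefSeq. Scaling alternatives used edgeR 4.0.16 (TMM) and DESeq2 1.42.0 (size factors), with Python 3.11.15, numpy 2.4.6, scipy 1.17.1 and R 4.3.3.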

Additional observations from a re-analysis of the deposited data

How the results depend on the processing

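The main log2 ratios of the summed UMIs were -0.41, -0.30 and -0.44 for tumor tissue over tumor-bearing blood, bone marrow and spleen, and -0.029, -0.16 and 0.024 for tumor-bearing over naive blood, bone marrow and spleen. Because their counting intervals are narrow, most settings moved them past those intervals; the direction changed in the spleen comparison of tumor-bearing with naive mice under DESeq2 size factors, and in no other. With ribosomal protein and mitochondrial genes left out of the total, the log2 ratio of the sum was -0.48 for blood, -0.36 for bone marrow and -0.53 for spleen (tumor tissue over tumor-bearing) and -0.19 for bone marrow and 0.035 for spleen (tumor-bearing over naive). With TMM factors, the log2 ratio of the sum was -0.21 for blood, -0.048 for bone marrow and -0.22 for spleen (tumor tissue over tumor-bearing) and -0.054 for blood, -0.20 for bone marrow and 0.00038 for spleen (tumor-bearing over naive), and members past the fold numbered 1 for bone marrow and 2 for spleen higher (tumor tissue over tumor-bearing), 18 for blood, 13 for bone marrow and 20 for spleen lower (tumor tissue over tumor-bearing) and 3 for blood and 15 for bone marrow lower (tumor-bearing over naive). With DESeq2 size factors, the log2 ratio of the sum was -0.20 for blood, -0.064 for bone marrow and -0.19 for spleen (tumor tissue over tumor-bearing) and -0.045 for blood, -0.19 for bone marrow and -0.0078 for spleen (tumor-bearing over naive), and members past the fold numbered 1 for bone marrow and 2 for spleen higher (tumor tissue over tumor-bearing), 17 for blood, 13 for bone marrow and 19 for spleen lower (tumor tissue over tumor-bearing) and 2 for blood and 14 for bone marrow lower (tumor-bearing over naive). With cells weighted equally, the log2 ratio of the sum was -0.43 for blood, -0.34 for bone marrow and -0.48 for spleen (tumor tissue over tumor-bearing) and -0.041 for blood and 0.020 for spleen (tumor-bearing over naive). With equal mixes of clusters, the log2 ratio of the sum was -0.018 for blood and -0.10 for bone marrow (tumor-bearing over naive), and members past the fold numbered 0 for blood and 5 for bone marrow lower (tumor-bearing over naive). With cells thinned to 3000 UMIs, the log2 ratio of the sum was -0.42 for blood, -0.33 for bone marrow and -0.47 for spleen (tumor tissue over tumor-bearing) and -0.037 for blood, -0.15 for bone marrow and 0.020 for spleen (tumor-bearing over naive), and members past the fold numbered 1 for bone marrow and 1 for spleen higher (tumor tissue over tumor-bearing) and 0 for blood and 1 for spleen lower (tumor-bearing over naive). Leaving out the deepest 2% of cells, the log2 ratio of the sum was -0.41 for blood and -0.46 for spleen (tumor tissue over tumor-bearing) and 0.030 for spleen (tumor-bearing over naive), and members past the fold numbered 0 for blood lower (tumor-bearing over naive). Without cluster 12, the log2 ratio of the sum was -0.41 for blood and -0.45 for spleen (tumor tissue over tumor-bearing) and -0.023 for blood and -0.17 for bone marrow (tumor-bearing over naive). Without a minimum level, members past the fold numbered 1 for bone marrow higher (tumor tissue over tumor-bearing) and 8 for blood higher (tumor-bearing over naive). The shares of all measured genes past the fold were not counted under these settings, so the numbers of members cannot be read against them. The causes of these moves were not tested beyond the construction of each setting. Of the named members' ratios under all settings, 1659 kept their side of the threshold, 58 no longer reached it, 45 newly reached it, 1 newly reached it in the other direction and 2 changed direction, both for Rps4l with cells thinned to 3000 UMIs: 0.0082 for tumor-bearing over naive blood and 0.88 for tumor tissue over tumor-bearing bone marrow. Thinning left out 75 tumor tissue cells and at most 7 cells of any other library. Equal mixes of clusters gave no value for tumor tissue, which shares no cluster of 20 cells with a tumor-bearing library. In the test with tissue as a block (5 members higher and 4 lower; it and its alternatives were chosen after seeing the data), the calls numbered 0 higher and 0 lower without the replicate block, 8 higher and 2 lower without the bone marrow pair, 0 lower without the blood pair, 2 lower without TMM factors and 11 lower without a minimum level. Of all genes tested there, 2.39% were higher and 1.73% lower without the bone marrow pair, and 0.603% were lower without the blood pair. The lower share was 1.04% without TMM factors and 1.18% without a minimum level, and no gene was called without the block. Tumor-bearing bone marrow, with 57 cells, limits what can be said of that tissue, and members under 10000 UMIs are limited by their copies.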
